A study of Mus musculus with 3 samples.

Results

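The genes described here are 10 targets of the transcription factor p53, measured in single nuclei from differentiated mouse neurosphere cultures. They were taken by symbol from the gene column of the deposited matrices, as Mdm2, Polk, Apaf1, Cdkn1a, Ccng1, Zmat3, Sesn1, Sesn2, Trp53inp1 and Eda2r, which are 10 of the 30559 genes listed there. Their unique molecular identifiers (UMIs, each standing for 1 captured RNA molecule) were summed by library, by class of nuclei, and over nuclei with and without a UMI of Mdm2. These 3 sums are also what the genes were chosen on, so the values below describe the genes and no test was run on them.

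p53 is a stress-responsive transcription factor that is held at a low level by the ubiquitin ligase Mdm2, itself a product of a p53 target gene, so that the pathway closes on itself. Once stabilised, p53 raises genes that stop the cell cycle, repair or bypass damaged DNA, temper growth and oxidative stress, or start apoptosis. CBP and p300 are paralogous lysine acetyltransferases that bind the transactivation domain of p53 and acetylate it, and in neural progenitors p53 is known for restraining self-renewal.

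The series compared 3 cultures grown from the subventricular zone (SVZ), the neurogenic niche along the lateral ventricles, of newborn C57BL/6 pups. The genotype labels read control, CBPf/f and p300f/f, the f/f marking homozygous floxed alleles of Crebbp or Ep300, and each of the 3 samples carries the treatment label tamoxifen. The study's methods instead describe a lentivirus carrying Cre and mCherry for ablation and one carrying RFP for control, with sorting of nuclei for either colour. Which of these agents was used for these libraries could not be settled, and no value here checks the virus marking. The mouse line behind the control cultures was not given in the sources used here. Each condition was 1 library made from a pool of about 15 cultures at 15 days in vitro, with 16000 nuclei loaded, and animals, cultures and conditions cannot be told apart within it. No spread between replicates could therefore be had, and the 95% intervals in parentheses cover counting error only.

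The control library held 4884 nuclei, the CBP-ablated 3017 and the p300-ablated 4648, with 12748336 to 18876682 UMIs each and a median of 3219 to 4016 UMIs per nucleus. Pairs of libraries shared 1 to 7 cell barcodes. Clustering of the merged nuclei gave 13 clusters, of which 10 met the rule for a fixed marker list and are called by its name with "-like"; the cluster-5-like class carries markers of a cluster that the study called immature neurons, such as Kcnj6 and Nell2, and is given by number here. The astrocyte-like class held 1278 control nuclei and 0 from either ablated library, so that class and that library cannot be told apart. Whole-gene UMIs of the floxed genes, which include introns and exons outside the deleted part, were not lower in their ablated libraries. They therefore did not check the labels, and the reason was not tested. Crebbp stood at 335, 370 and 365 CPM (UMIs of the gene per 1000000 UMIs) and Ep300 at 114, 136 and 115 CPM. Such runs of 3 values are in the order control, CBP-ablated, p300-ablated here and throughout.

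The 10 genes lie on 7 chromosomes by the GENCODE M21 annotation of GRCm38, the build of the deposited counts. Mdm2 (ENSMUSG00000020184) spans chr10:117688875-117710758 on the minus strand, Cdkn1a spans chr17:29090976-29100727 on the plus strand, and Sesn1 spans chr10:41809935-41908424 on the plus strand. Sesn2 shares its strand with Gm12981, an annotated antisense RNA, and Polk overlaps Gm17622 on the opposite strand, so a part of the UMIs of Sesn2 could belong to its neighbour.

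The DNA that p53 binds is built of 10-letter half-sites, and the start-site windows of the members were searched for the p53 consensus half-site to show which of them carry it close to a start. RefSeq windows of 300 bases on GRCm38.p6, from 250 bases before to 50 after each annotated start, were given for 8 of the 10 genes; Zmat3 and Trp53inp1 had no entry. The half-site reads the same on both strands. As a description, it was present in windows of 5 members, Mdm2, Polk, Cdkn1a, Ccng1 and Sesn1, and in none of the windows of Apaf1, Sesn2 and Eda2r, so that 5 of the members' 11 windows held it, against 8.36% of all 32851 windows. Each is shown with its half-site in capitals and 10 flanking letters on each side, because these are the members' own sites, the first for the gene by which nuclei are split below.
Mdm2, chr10:117710925-117710954, minus strand: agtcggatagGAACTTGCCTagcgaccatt
Cdkn1a, chr17:29090896-29090925, plus strand: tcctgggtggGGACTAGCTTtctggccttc
Ccng1, chr11:40755452-40755481, minus strand: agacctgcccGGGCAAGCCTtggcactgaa
Sesn1, chr10:41887256-41887285, plus strand: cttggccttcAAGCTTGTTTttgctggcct
Polk, chr13:96519399-96519428, minus strand: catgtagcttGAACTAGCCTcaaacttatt
The Mdm2 site begins 186 bases before its start and the Ccng1 site 185 bases before. The sites of Sesn1 and Polk belong to starts inside the annotated gene, 173 and 231 bases before them.

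A full p53 response element joins a pair of half-sites. A search for an exact half-site directly beside another with at most 1 letter off, added after the first search was seen, found such a pair of 20 letters in windows of Cdkn1a and Ccng1 and in 0.0883% of all windows. These are shown with the pair in capitals, as the only members in whose windows this search found such a pair. Half-sites with letters between them were not searched for as pairs.
Cdkn1a, chr17:29090923-29090952, plus strand: ttcagGAACATGTCTTGACATGTTCagccc
Ccng1, chr11:40755457-40755486, minus strand: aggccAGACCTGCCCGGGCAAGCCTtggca
A match is a string of letters and not a measured site, and sequence outside these windows, introns included, was not searched.

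Summed over all nuclei of a library, Cdkn1a, Ccng1, Sesn2, Trp53inp1 and Eda2r were lower in both ablated libraries than in control. Sesn1 was lower after CBP ablation and higher after p300 ablation. Mdm2 itself was close to level after CBP ablation and slightly lower after p300 ablation. Mdm2, the ligase that marks p53 for degradation, stood at 115 CPM in control (109 to 120), 119 after CBP ablation (113 to 125) and 104 after p300 ablation (99.5 to 109). Its 3 values lie within a narrow range, and it was found in 27.4%, 33.5% and 27.7% of nuclei. At a fixed depth of 1500 UMIs per nucleus, which leaves out nuclei below that depth, the shares were 15.1%, 15.2% and 13.3%.

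Cdkn1a encodes p21, the cyclin-dependent kinase inhibitor through which p53 stops the cell cycle. It stood at 28.2 CPM in control (25.7 to 30.9), 13.1 after CBP ablation (11.2 to 15.2) and 17.7 after p300 ablation (15.8 to 19.7). The 3 intervals do not overlap, and control was highest. Ccng1, cyclin G1, a member of the Mdm2 feedback circuit, stood at 37.6, 21.6 and 22.9 CPM. The ablated libraries overlapped each other and lay below control.

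Sesn1 and Sesn2 encode sestrins, which lower mTORC1 activity and oxidative stress. Sesn2 stood at 24.3 CPM in control, 12.002 after CBP ablation and 15.3 after p300 ablation. Sesn1 behaved otherwise, at 119, 105 and 129 CPM, with the p300-ablated library highest. Trp53inp1, a stress-induced protein that promotes p53 phosphorylation and autophagy, stood at 69.1, 42.9 and 53.6 CPM. Its control value was the highest, with no overlap of the 3 intervals.

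Among the genes tied to death, Eda2r, a receptor for ectodysplasin A2, stood at 36.2, 20.3 and 24.7 CPM. Apaf1, the scaffold of the apoptosome, stood at 73.6, 60.2 and 59.1 CPM. Both were highest in control. Zmat3, an RNA-binding protein that alters splicing downstream of p53, stood at 61.7, 49.5 and 56.5 CPM. Polk, the translesion DNA polymerase kappa, stood at 67.0, 64.0 and 58.6 CPM, a spread about as narrow as that of Mdm2.

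**Figure D1:**
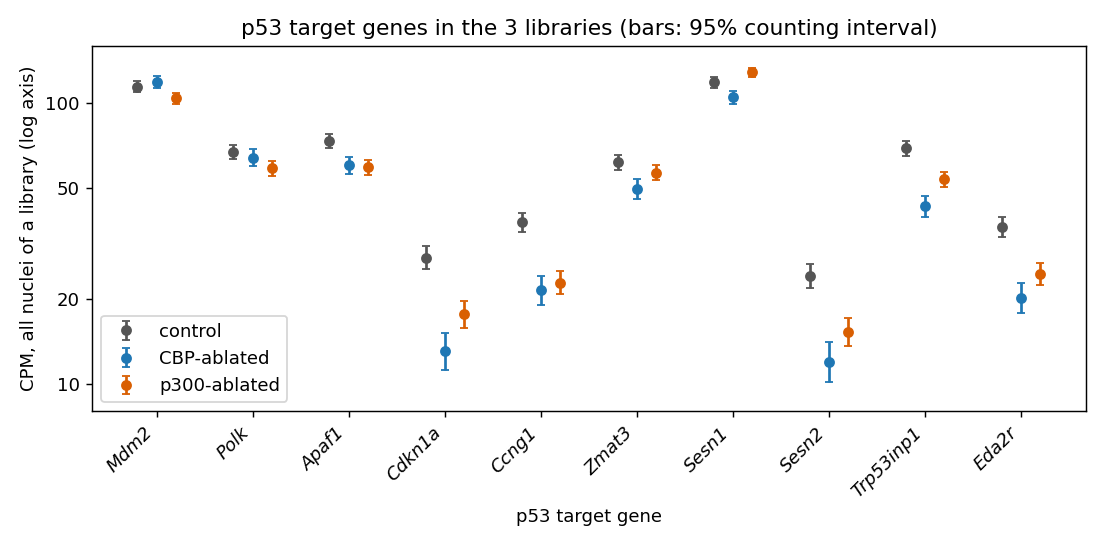
Level of each p53 target gene in CPM on a log axis, summed over all nuclei of the control, CBP-ablated and p300-ablated libraries; points are library values and bars are 95% counting intervals. Cdkn1a falls from 28.2 CPM in control to 13.1 and 17.7, whereas Mdm2 stays between 104 and 119.

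Longer genes give more intronic UMIs, so levels were set against each other only per kilobase of gene. On that scale Ccng1 led in control, at 5.57 CPM per kb, followed by Mdm2 at 5.24. In both ablated libraries Mdm2 led, at 5.45 and 4.76 CPM per kb. Eda2r or Apaf1 came last in the 3 libraries, between 0.468 and 0.787 CPM per kb.

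As log2 ratios of CPM, the members had a median of −0.50 in the CBP-ablated library against control, where the median over the 11883 genes with at least 100 UMIs in both libraries together was 0.06. Of the 10 members, 5 lay below −0.5 (background: 12.2% of all genes) and 2 below −1 (3.99%), and 8 had an interval wholly below 0 (22.6%) with 0 above it (30.4%). The most negative were Cdkn1a at −1.11 (−1.37 to −0.85), Sesn2 at −1.02 (−1.295 to −0.74), Eda2r at −0.83 (−1.05 to −0.62) and Ccng1 at −0.80 (−1.01 to −0.60). Mdm2 was the only positive one, at 0.06 (−0.04 to 0.16), and its interval spans 0.

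In the p300-ablated library against the same control library, the members' median was −0.34 against −0.03 over 12247 genes. Here 4 members lay below −0.5 (10.3%), 0 lay below −1 (2.12%), 9 had an interval below 0 (27.1%) and 1 an interval above 0 (22.3%). Ccng1 was lowest at −0.71 (−0.90 to −0.53), then Cdkn1a at −0.67 (−0.88 to −0.47), Sesn2 at −0.67 (−0.89 to −0.44) and Eda2r at −0.55 (−0.73 to −0.38). Sesn1 was the positive one, at 0.11 (0.03 to 0.20). Mdm2 was at −0.14 (−0.23 to −0.05), an interval below 0. The interval of Zmat3, at −0.13, ended at the edge of 0.

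The 2 ablated libraries were also set directly against each other, without control. With p300-ablated as the reference, the members' median log2 ratio in the CBP-ablated library was −0.24, against 0.10 over 11956 genes, and 6 of 10 intervals lay below 0 (20.3%) and 1 above (33.2%). Cdkn1a was at −0.43 (−0.71 to −0.16), Sesn2 at −0.35 (−0.64 to −0.06), Trp53inp1 at −0.32 (−0.47 to −0.17) and Sesn1 at −0.29 (−0.39 to −0.20). Mdm2 was the one above, at 0.20 (0.10 to 0.29), so its level was higher in the CBP-ablated library while most of its companions were lower. Each comparison is 1 library against 1, and fewer nuclei of a class or less RNA per nucleus cannot be told apart in such sums.

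The astrocyte-like class moved with these differences. Its 1278 nuclei held 24.0% of the control UMIs but 48.7% of the Sesn2, 45.2% of the Cdkn1a, 41.2% of the Ccng1 and 36.1% of the Trp53inp1 UMIs of that library. For Mdm2 the share was 26.4% and for Sesn1 22.7%, near the class's share of all UMIs. Cdkn1a stood at 53.04 CPM in astrocyte-like and 20.3 CPM in all other control nuclei, a log2 ratio of 1.38 (1.11 to 1.65), and Sesn2 at 49.2 and 16.4 CPM. Intervals of 8 of 10 members lay above 0 in this contrast (31% of all genes), and the exceptions were Polk at 0.18 (−0.02 to 0.38) and Sesn1 at −0.11 (−0.27 to 0.04).

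Without the astrocyte-like nuclei, the members' median against control was −0.32 after CBP ablation and −0.11 after p300 ablation, where all genes stood at 0.07 and −0.01. With CBP ablated, 7 of 10 intervals remained below 0 (18.5% of all genes), among them Eda2r at −0.64 (−0.87 to −0.41), Cdkn1a at −0.63 (−0.93 to −0.35), Sesn2 at −0.45 (−0.76 to −0.14) and Trp53inp1 at −0.44 (−0.60 to −0.28). With p300 ablated, 3 of 10 lay below 0 (19.2%), namely Eda2r at −0.36 (−0.55 to −0.16), Ccng1 at −0.34 (−0.55 to −0.14) and Polk at −0.15 (−0.28 to −0.01). Cdkn1a there was at −0.20 (−0.44 to 0.04) and Sesn2 at −0.10 (−0.36 to 0.17), so that neither could be distinguished from 0 at this depth. The remaining nuclei still differed in their mix of classes. Of the whole libraries, oligodendrocyte-like nuclei were 3.28%, 16.1% and 4.15%, and committed oligodendrocyte precursor-like nuclei 8.09%, 20.2% and 5.08%. What part of these ratios goes with that mix was not tested.

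**Figure D2:**
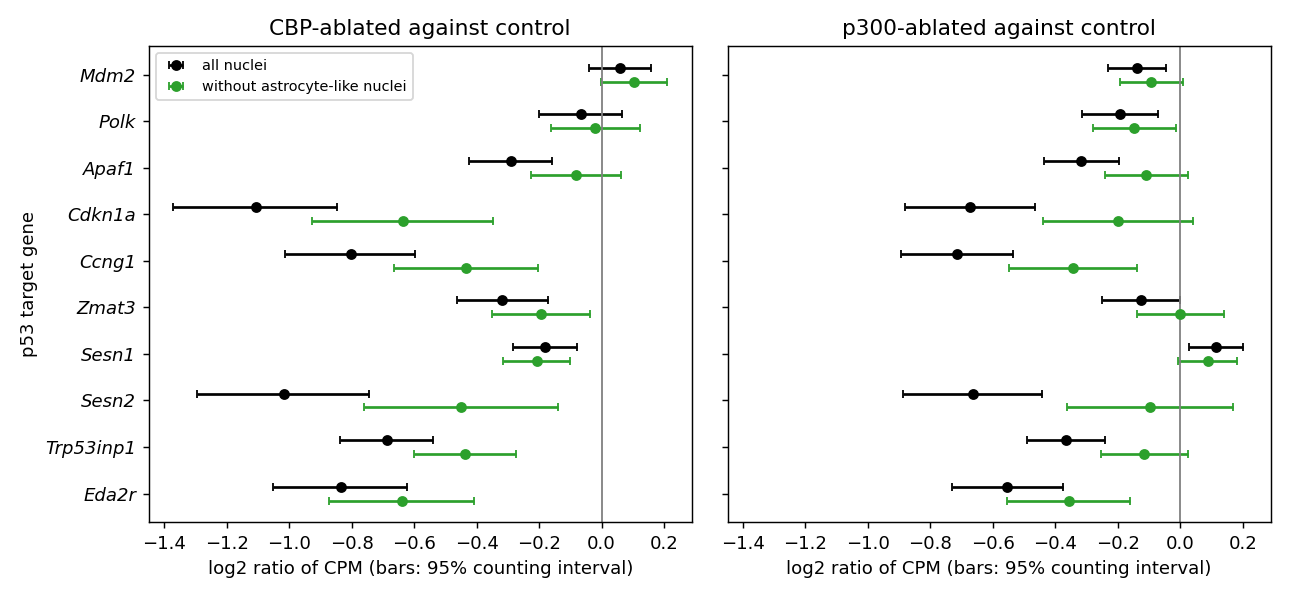
Log2 ratio of CPM of each p53 target gene in the CBP-ablated (left) and p300-ablated (right) library over the control library, with all nuclei (black) and without the astrocyte-like nuclei (green); bars are 95% counting intervals and the grey line marks no difference. Without those nuclei the ratio of Cdkn1a moves from −1.11 to −0.63 on the left and from −0.67 to −0.20 on the right.

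Across classes of nuclei, most of the members were highest in a small unnamed cluster, called here the Mdm2-richest cluster. It held 232, 79 and 169 nuclei, or 4.75%, 2.62% and 3.64% of the libraries. Its leading genes were Gm8251, Pygm, Hmga2, Gadd45b, Nqo1, Cdkn1a, Cep170b, Atf3, Ccdc125 and Tubb6, and 0 markers of any of the 10 fixed lists passed the marker rule in it. Gadd45b and Atf3 are stress-response genes, and Nqo1 is a detoxifying oxidoreductase. Its nuclei were shallow, with medians of 2009, 2092 and 2142 UMIs, and 11.6%, 3.80% and 4.14% of them were called doublets.

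Mdm2, which picked out the cluster, stood there at 295 CPM in control (249 to 346), 391 after CBP ablation (307 to 491) and 546 after p300 ablation (476 to 623). The most Mdm2 UMIs in a single nucleus of each whole library were 10, 14 and 74, and the classes of those nuclei were not looked up. Cdkn1a stood at 114, 89.9 and 155 CPM, against 25.5, 11.9 and 14.7 CPM in the other nuclei of the same libraries. This is 4.48-fold, 7.53-fold and 10.6-fold higher, the largest fold of any member in each library. Polk reached 192, 275 and 157 CPM, Apaf1 182, 270 and 125 CPM, and Eda2r 98.2, 79.3 and 116 CPM. In control, 9 of 10 members had an interval above 0 against the other nuclei (24.3% of all genes), after CBP ablation 10 (19.7%) and after p300 ablation 9 (20.1%). Sesn1 was the exception in control, at a log2 ratio of 0.29 (−0.07 to 0.63), and in p300-ablated nuclei, at 0.32 (−0.06 to 0.68). Since the clustering used these same nuclei, this describes the cluster and is no test of it.

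Ranked over the classes with at least 50 nuclei, the Mdm2-richest cluster came first for 9 of 10 members in control, 10 after CBP ablation and 8 after p300 ablation. In 4, 8 and 5 of those cases its interval was clear of that of the class ranked next, and in the others the intervals overlapped, which does not show that the levels were alike. The exceptions were Sesn1 in control and p300-ablated nuclei and Apaf1 in p300-ablated nuclei, each highest in the microglia-like class. The share of all genes that came first in the Mdm2-richest cluster was not counted, so these ranks are no trait of the members alone. All genes had a median log2 ratio of 0.27, 0.33 and 0.24 in that cluster over the other nuclei. Of the 10 members only Mdm2 had been among the 1617 variable genes used for clustering. With the p53 gene lists taken out of those genes, 476 of the 480 nuclei fell together again.

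The named classes differed in which members they carried. Mdm2 was high in oligodendrocyte-like nuclei, at 205, 167 and 182 CPM, and in RGC/PSC-like nuclei, at 184, 134 and 147 CPM. RGC/PSC is the study's label for a cluster that appeared to mix radial glial and/or pluripotent stem cells, an identity not checked here. Cdkn1a did not follow Mdm2 into the oligodendrocyte-like nuclei, where it stood at 11.8, 11.5 and 11.8 CPM, below the 35.7, 25.0 and 32.1 CPM of the RGC/PSC-like nuclei. In glial progenitor-like nuclei Cdkn1a stood at 36.5, 33.0 and 40.3 CPM.

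Cdkn1a was low in NPC/OPC-like and neuron-like nuclei. NPC/OPC is the study's label for a cluster that appeared to mix neuronal and oligodendrocyte progenitors, an identity not checked here. NPC/OPC-like nuclei held 6.77, 4.36 and 3.77 CPM of Cdkn1a. Neuron-like nuclei held 1 UMI of it in control (3.24 CPM), 2 after CBP ablation (3.35 CPM) and 0 after p300 ablation, where a count of 0 allows up to 9.15 CPM. Sesn1, in contrast, stood at 191, 188 and 143 CPM in neuron-like nuclei, and was lowest in committed oligodendrocyte precursor-like nuclei, at 54.4, 51.2 and 54.8 CPM.

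**Figure D3:**
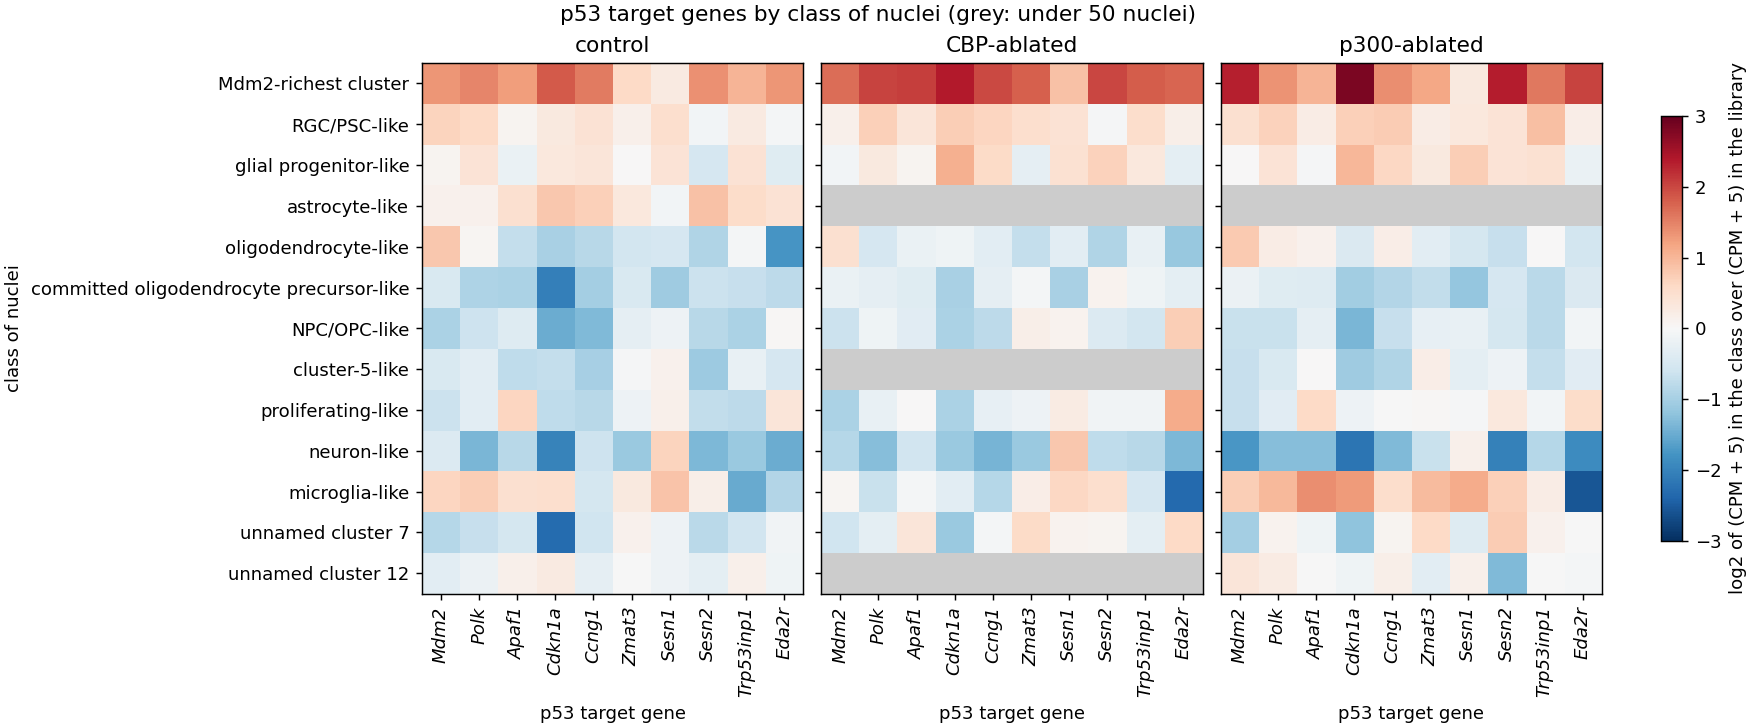
Level of each p53 target gene by class of nuclei in the 3 libraries, as log2 of the CPM in the class over the CPM in the whole library after adding 5 CPM to each; red is higher, blue lower, and grey marks classes with under 50 nuclei. The top row, the Mdm2-richest cluster, is red for every gene, and Cdkn1a is blue in NPC/OPC-like, committed oligodendrocyte precursor-like and neuron-like nuclei of each library.

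Several members in 1 nucleus were most often met in that same cluster. With every nucleus thinned to 1500 UMIs, 6.69%, 4.14% and 4.25% of nuclei held a UMI of at least 3 of the 10 genes. In the Mdm2-richest cluster the shares were 28.1% (21.1 to 35.9), 32.8% (21.0 to 46.3) and 31.3% (23.0 to 40.6). Mdm2, by which that cluster was picked, is among the 10 genes counted. Astrocyte-like nuclei of control reached 10.6% and RGC/PSC-like nuclei 10.3%, 9.56% and 8.77%. The few microglia-like nuclei reached 10.9% (7 of 64) in control, 0 of 22 after CBP ablation and 13.3% (4 of 30) after p300 ablation. NPC/OPC-like nuclei held 1.98%, 3.14% and 1.203%, and committed oligodendrocyte precursor-like nuclei 1.53%, 1.498% and 1.27%.

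Within single classes the members lay on both sides of control. In RGC/PSC-like nuclei, CBP-ablated over control, Mdm2 was at −0.46 (−0.72 to −0.20), Sesn2 at −0.98 (−1.88 to −0.13), Ccng1 at −0.52 (−1.03 to −0.02) and Trp53inp1 at −0.40 (−0.79 to −0.01), and the median of the 10 members was −0.43 against 0.04 over all genes. These 4 were the members with an interval below 0 (12.7% of all genes). In oligodendrocyte-like nuclei, Trp53inp1 was at −0.87 (−1.35 to −0.38), Polk at −0.69 (−1.15 to −0.22) and Mdm2 at −0.29 (−0.55 to −0.04). The members' median in that class was −0.26 against 0.08 over all genes. In NPC/OPC-like nuclei, Mdm2 was at 0.40 (0.01 to 0.77) and Polk at 0.50 (0.05 to 0.93). In committed oligodendrocyte precursor-like nuclei, Mdm2 was at 0.34 (0.04 to 0.64) and Polk at 0.68 (0.22 to 1.15). The members' medians in these precursor classes were −0.09 and 0.07, against 0.07 and 0.12 over all genes. There 5 of 10 and 4 of 9 members lay below 0. In glial progenitor-like nuclei, Trp53inp1 was at −0.79 (−1.22 to −0.37) and Zmat3 at −0.62 (−1.14 to −0.12), 2 of 10 intervals below 0 (12.5%). In the Mdm2-richest cluster the members' median was 0.30, with Zmat3 at 0.94 (0.27 to 1.60) and Apaf1 at 0.56 (0.04 to 1.07), 2 of 10 intervals above 0 (13.3%) and 0 below (15.7%). The counts in the last 2 classes lie near the share over all genes. No such share is given for the oligodendrocyte-like, NPC/OPC-like and committed oligodendrocyte precursor-like classes. Their intervals clear of 0 therefore do not set the members apart from other genes. Differences between classes were not tested.

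Cdkn1a could be compared between the CBP-ablated and control libraries in 5 classes, those with at least 20 UMIs in both together, and its ratio lay below 0 in the 5, from −0.63 to −0.04, with 0 intervals clear of 0. Trp53inp1 lay below 0 in 9 of 11 classes, 3 of them with the interval below 0. Eda2r lay below 0 in 5 of 10 classes, with 0 intervals clear of 0. After p300 ablation Cdkn1a lay below 0 in 5 of 8 classes, 1 with the interval below 0, and Sesn2 in 3 of 7. Trp53inp1 lay below 0 in 6 of 10 classes, with 1 interval below 0 and 1 above. In cluster-5-like nuclei Cdkn1a was at −1.41 (−2.69 to −0.16) and Trp53inp1 at −0.93 (−1.49 to −0.37). Trp53inp1 was higher in RGC/PSC-like nuclei, at 0.32 (0.03 to 0.62). Eda2r was at −0.69 (−1.04 to −0.34) in NPC/OPC-like nuclei. The shares of all genes are not given for these p300 contrasts.

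The p300-ablated nuclei of the Mdm2-richest cluster stood apart for Mdm2. Its ratio to control there was 0.89 (0.58 to 1.2), from 147 control and 222 p300-ablated UMIs, while in RGC/PSC-like nuclei it was −0.32 (−0.54 to −0.11). A single p300-ablated nucleus held 74 Mdm2 UMIs, where no control nucleus held more than 10. Which class held it was not looked up, so the ratio of 0.89 may rest in part on that nucleus. The counting interval does not cover this. Ccng1 in the same cluster was at −0.80 (−1.51 to −0.14), and Apaf1 at −0.54 (−1.06 to −0.03), so that 1 member had an interval above 0 (14.8%) and 2 below (11.3%). Sesn1, the member higher in the whole p300-ablated library, was at 0.45 (0.21 to 0.69) in glial progenitor-like nuclei, from 159 CPM in control and 217 CPM. In cluster-5-like nuclei Sesn1 was lower, at −0.35 (−0.68 to −0.006). Of its 12 class ratios, 5 lay below 0 and 7 above, with a median of 0.02.

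The other 9 members were next described in nuclei in which Mdm2 was caught and in those without it. The members were chosen with this split in view, so the values describe them and test nothing. Nuclei with at least 1 Mdm2 UMI numbered 1338 of 4884, 1012 of 3017 and 1288 of 4648. They were also deeper, with medians of 3411.5 against 3144, 4572 against 3768 and 4241.5 against 3767.5 UMIs. Levels were therefore taken per UMI, with Mdm2 left out of the total.

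In control, Cdkn1a stood at 41.5 CPM in nuclei with Mdm2 and 22.5 CPM in those without, a log2 ratio of 0.88 (0.61 to 1.15). After CBP ablation it stood at 18.3 and 9.90 CPM, a ratio of 0.89 (0.43 to 1.34), and after p300 ablation at 29.5 and 12.4 CPM, a ratio of 1.25 (0.93 to 1.57). Cdkn1a had the largest ratio of the 9 in each library. The median of the 9 was 0.42, 0.28 and 0.61, against 0.02, −0.04 and 0.03 over all genes.

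Past a log2 ratio of 0.5 lay 4 of 9 members in control (4.47% of all genes), 2 after CBP ablation (5.12%) and 6 after p300 ablation (5.75%). Intervals lay above 0 for 8 (14%), 5 (12.2%) and 7 (17%) of the 9. Trp53inp1 was at 0.42, 0.74 and 0.76 in the 3 libraries, Polk at 0.67, 0.28 and 0.55, and Ccng1 at 0.61, 0.43 and 0.81. Sesn1 was level or lower, at −0.03 (−0.17 to 0.11), −0.24 (−0.41 to −0.08) and 0.04 (−0.08 to 0.17), and Zmat3 was at 0.41 (0.22 to 0.60), 0.04 (−0.20 to 0.28) and 0.12 (−0.07 to 0.31).

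Combined over classes by a Mantel-Haenszel rate ratio, so that nuclei are compared only with others of their class, the medians were 0.40, 0.33 and 0.53. Past 0.5 then lay 2 of 9 members in control (1.24% of all genes), 2 after CBP ablation (1.64%) and 5 after p300 ablation (1.42%). Cdkn1a was at 0.68, 0.86 and 0.91 on this scale. Outside the Mdm2-richest cluster the medians were 0.41, 0.14 and 0.49, and 7 (13.4% of all genes), 3 (12%) and 7 (16.4%) of the 9 intervals lay above 0. The members' combined ratios were thus mostly positive, with the CBP-ablated library lowest outside that cluster. In single classes the ratios varied. Zmat3 lay above 0 in 12 of 12 classes in control, Sesn2 there in 3 of 6, and Apaf1 in 4 of 9 after p300 ablation. Their intervals lay above 0 in 1, 1 and 2 of these classes, and below 0 in 0, 0 and 1. Unnamed cluster 12, in which most nuclei were called doublets, is among the classes counted for Zmat3 and Apaf1.

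Nuclei were then grouped by the number of Mdm2 UMIs, and 5 of the 9 members in control, 4 after CBP ablation and 6 after p300 ablation were higher at each step from 0 to at least 3. The share of all genes that did so was not counted, so these counts do not set the members apart. In control, Cdkn1a stood at 22.5, 35.7, 53.2 and 62.0 CPM in nuclei with 0, 1, 2 and at least 3 Mdm2 UMIs. After CBP ablation the values were 9.90, 13.1, 21.4 and 41.6 CPM, and after p300 ablation 12.4, 22.2, 30.1 and 74.2 CPM. Cdkn1a, Polk and Trp53inp1 were higher at each step in all 3 libraries, though intervals of neighbouring steps overlapped in places.

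The last group was small, at 103, 106 and 123 nuclei. Trp53inp1 reached 129, 102 and 152 CPM in it, from 62.8, 34.1 and 44.2 CPM in nuclei without Mdm2. Sesn1 stood at 91.8, 72.7 and 139 CPM, against 120, 112 and 127 CPM.

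**Figure D4:**
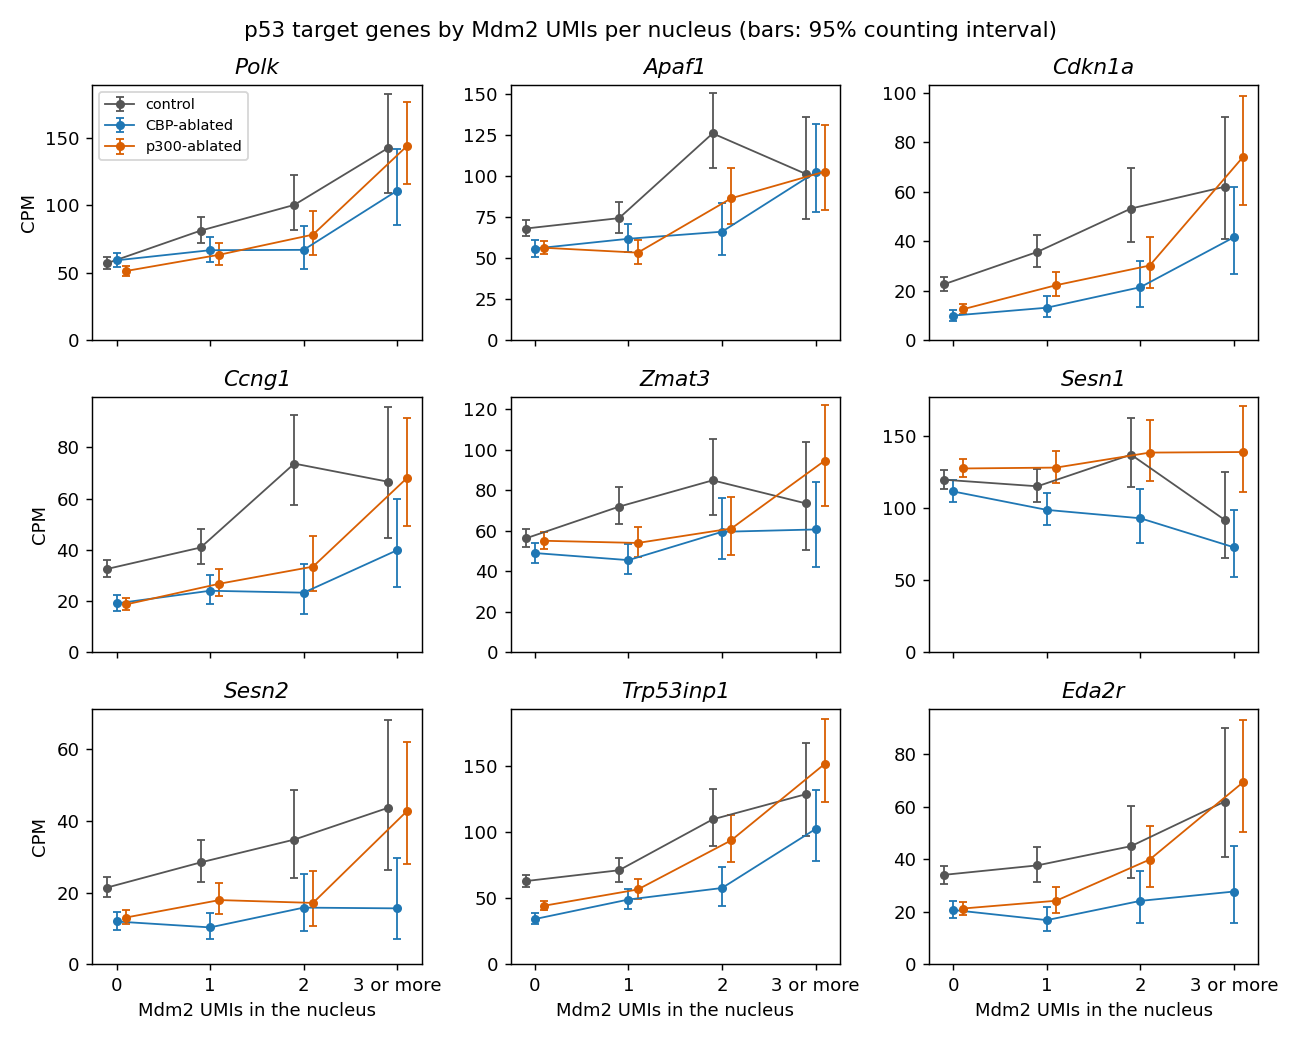
Level in CPM of the 9 other p53 target genes in nuclei with 0, 1, 2 and at least 3 UMIs of Mdm2, in the control, CBP-ablated and p300-ablated libraries; points are sums over the nuclei of a group and bars are 95% counting intervals. Cdkn1a climbs from 12.4 to 74.2 CPM in the p300-ablated library, while Sesn1 moves from 112 to 72.7 CPM in the CBP-ablated one.

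Pairs of members were next counted in the same nucleus, at 1500 UMIs each, against the number expected were they independent within each class. The median of observed over expected was 1.22 over 45 pairs, 1.17 over 35 pairs and 1.22 over 45 pairs, with pairs expected in fewer than 5 nuclei left out. Intervals lay above 1 for 9, 5 and 7 pairs, and below 1 for 0. Among the p53 regulators, a list of genes that act on p53, the medians were 1.02, 0.988 and 1.00 over 197, 182 and 197 pairs, and 2, 1 and 0 intervals lay above 1. No share over all pairs of genes is given here, so these counts do not set the members apart from other genes.

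The largest value was that of Cdkn1a and Trp53inp1 in p300-ablated nuclei, seen together in 32 nuclei where 13.2 were expected, a ratio of 2.42 (1.65 to 3.41). Polk and Sesn2 in control were seen together in 36 nuclei against 21.2, a ratio of 1.70 (1.19 to 2.35). Mdm2 and Polk exceeded expectation in control, at 1.36 (1.11 to 1.65), and in CBP-ablated nuclei, at 1.38 (1.06 to 1.77). Sesn1 had 0 pairs with an interval above 1 in any library. The counts are sparse and most single pairs could not be distinguished from 1.

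**Figure D5:**
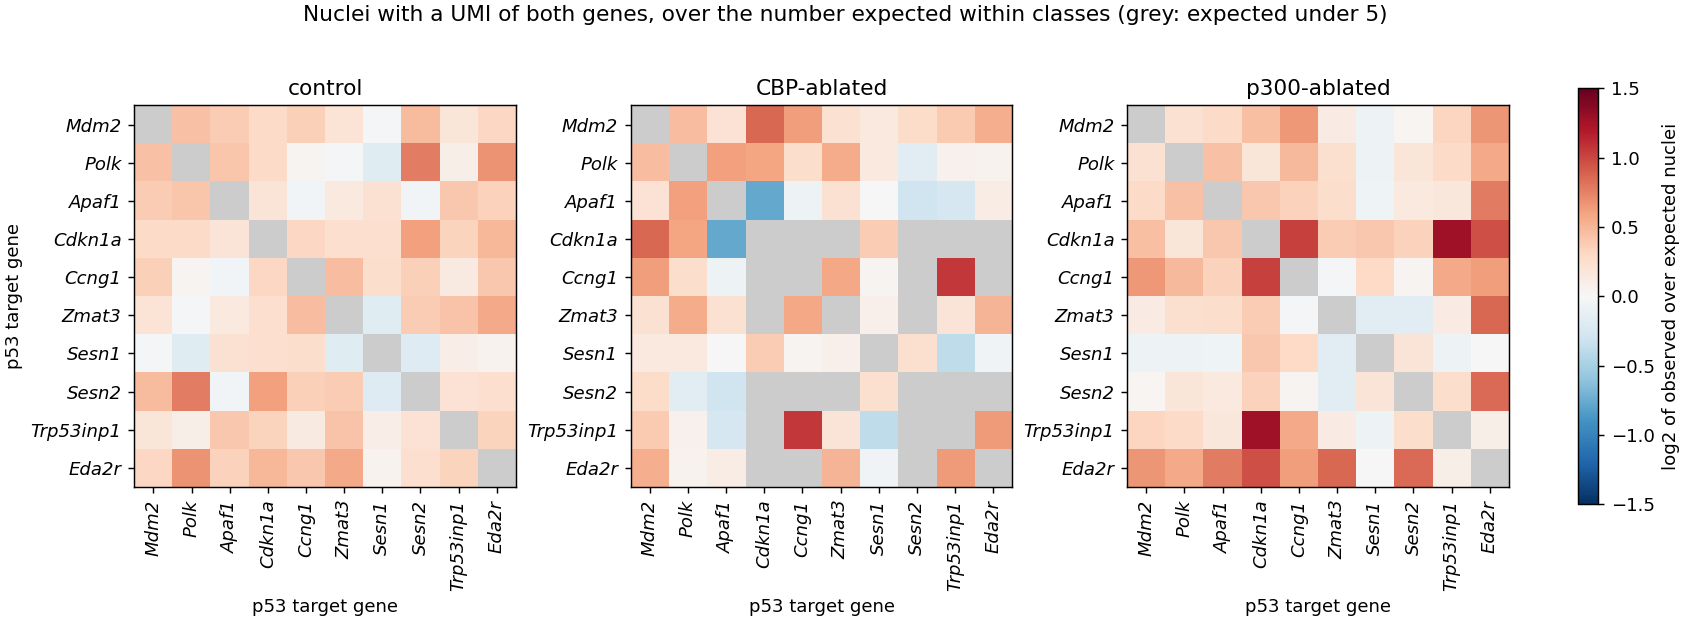
Nuclei with a UMI of both p53 target genes over the number expected within classes, on a log2 scale, in the 3 libraries with each nucleus thinned to 1500 UMIs; red is above and blue below expectation, and grey marks pairs expected in fewer than 5 nuclei and the diagonal. Red prevails, with medians of 1.22, 1.17 and 1.22 before the log, and the row of Sesn1 is pale.

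The wider p53 pathway was read from fixed lists. Like the members, these lists were chosen with earlier results of these data known, so their counts are a description and no test. Of 44 other p53 targets, 36 reached 100 UMIs over the control and CBP-ablated libraries, and 19 had an interval below 0 and 4 above, against 22.6% and 30.4% of all genes, with a median of −0.25. Ephx1, the microsomal epoxide hydrolase, stood at 57.3 CPM in control and 24.9 after CBP ablation, a log2 ratio of −1.2003 (−1.39 to −1.02). Plk2, a stress-responsive polo-like kinase, was at −1.196 (−1.53 to −0.87) and the death receptor Tnfrsf10b at −1.25 (−1.93 to −0.60). Others went up, with Plk3, a related kinase, at 1.21 (0.88 to 1.55) and Ddit4, an inhibitor of mTORC1, at 0.65 (0.29 to 1.03).

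In the p300-ablated library, 18 of 38 other targets had an interval below 0 and 2 above, against 27.1% and 22.3% of all genes, with a median of −0.23. Gdf15, a stress-induced secreted factor, stood at 5.03 CPM in control and 1.01 after p300 ablation, a ratio of −2.32 (−3.12 to −1.59). Rap2b, a small GTPase, was at −1.22 (−1.51 to −0.94), and Sulf2, a heparan sulphate sulphatase, at 0.36 (0.29 to 0.43). Without the astrocyte-like nuclei the medians of the list were −0.15 over 34 genes and −0.12 over 36 genes, close in the p300-ablated library to the members' own −0.11.

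The list of genes that act on p53 had a median of 0.13 after CBP ablation and −0.01 after p300 ablation, over 24 genes each. After CBP ablation 1 of the 24 had an interval below 0 (22.6% of all genes) and 12 above (30.4%). After p300 ablation 5 lay below (27.1%) and 5 above (22.3%), near the shares over all genes. Trp53 itself, the gene of p53, stood at 39.1, 37.2 and 34.1 CPM, with log2 ratios to control of −0.07 (−0.25 to 0.10) and −0.19 (−0.36 to −0.03). Mdm4, the partner of Mdm2 in holding p53 down, stood at 158, 174 and 153 CPM. The lowest regulator in the p300-ablated library was Rchy1, another ubiquitin ligase of p53, at −0.53 (−0.68 to −0.39).

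Cell cycle genes, which p21 restrains, had a median of 0.38 over 16 genes in the CBP-ablated library and 0.29 over 19 in the p300-ablated library. Top2a was at 0.61 (0.43 to 0.80) and 0.66 (0.50 to 0.84). Astrocyte-like nuclei were poor in them, with a median of −2.60 against other control nuclei over 8 genes, and without that class the medians were 0.07 and 0.08. Immediate early genes had a median of −0.34 over 9 genes after CBP ablation and 0.48 over 11 after p300 ablation, where Fosb was at 2.89 (2.26 to 3.58) and Egr1 at 1.43 (1.24 to 1.63). Whether the immediate early genes bear on the members was not tested.

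Nuclei rich in Mdm2 were not marked by p53 targets alone. The genes with the pattern most like that of Mdm2, ranked by the smallest of the 3 libraries' log2 ratios between nuclei with at least 2 Mdm2 UMIs and nuclei with 0 among 9288 genes, were Tmod1, Tnni1, Inf2, A330049N07Rik, Mast3, Prr5l, D7Ertd443e, 4930420G21Rik, Plekhh1 and Gm10701. Prr5l stood at 365, 916 and 601 CPM in the former and 82.4, 270 and 119 CPM in the latter, and with Tnni1 and 4930420G21Rik it is among the leading genes of the oligodendrocyte-like class. Of the members, Cdkn1a ranked 41 with a smallest ratio of 1.31, Trp53inp1 117 and Ccng1 220, while Sesn1 ranked 6424.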

How the data were processed

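Single-nucleus RNA libraries were read from the deposited gene-by-barcode matrices, 1 per condition. The authors made these UMI counts with Cell Ranger 3.1 on GRCm38 with annotation version 94, counting exons and introns, and the deposited nuclei had passed their filters. FastQC 0.11.9 and Seurat 2.3.4 also stand in the submitters' processing notes, and 0 columns were left unmapped.

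Nuclei were clustered in R 4.3.3 with Seurat 5.3.0 (union of the 1000 most variable genes per library, 1617 in all, 20 principal components, 30 neighbours, resolution 0.6, seed 1). A cluster took a cell type name only where at least 60% and at least 3 of its fixed markers passed (detected in at least 10% of nuclei, at least 2-fold over the rest in CPM, 1 added). Doublets were scored with Scrublet (scanpy 1.11.5) at 0.8% per 1000 nuclei and kept. Clusters 7, 8 and 12 stayed unnamed, cluster 8 being the Mdm2-richest.

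UMIs were summed and given as CPM with exact Poisson intervals, and log2 ratios with exact conditional binomial intervals, at the 95% level (Python 3.11.15, scipy 1.17.1). Ratios needed 100 UMIs over both sides, or 20 within a class. Shares of nuclei have exact Clopper-Pearson intervals, the limit for a count of 0 is 3 UMIs, and intervals cover counting error only. With 1 library per condition no test was run. The ratio and its interval were tested on simulated data.

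The members, and the lists of other p53 targets, p53 regulators, cell cycle and immediate early genes, were chosen with earlier results of these data known. Named genes were the members, Crebbp, Ep300, Trp53, Mdm4, up to 3 genes at each end of a list, and the 10 most like Mdm2. Alternatives were depth, doublet, class, centring, thinning, seed, resolution and free RNA (10% subtracted).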

Additional observations from a re-analysis of the deposited data

Results flagged for a closer look

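Sesn1 moved in opposite directions in the ablated libraries. Its log2 ratio to the shared control library was −0.18 (−0.28 to −0.08) with CBP ablated and 0.11 (0.03 to 0.20) with p300 ablated, from 1941 control, 1338 CBP-ablated and 2429 p300-ablated UMIs. Without the astrocyte-like nuclei the p300 value was 0.087 (−0.0063 to 0.181), an interval that spans 0. Within single classes the p300 ratio lay below 0 in 5 of 12 and above in 7, with 1 interval clear of 0 on each side. The CBP ratio lay below 0 in 8 of 12 classes and above in 4, with 0 intervals clear of 0. With 1 library per condition the difference was not tested.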

How the results depend on the processing

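Without the astrocyte-like nuclei the members' median against control moved to −0.32 (CBP) and −0.11 (p300), as the unweighted mean over classes to −0.14 and −0.061, and without that class and the Mdm2-richest cluster, an alternative chosen after seeing the data, to −0.26 and −0.086, where Mdm2 (CBP) stood at 0.16. As the mean over classes, 4 members reversed with p300 ablated, Polk to 0.0039, Apaf1 to 0.020, Zmat3 to 0.076 and Sesn2 to 0.18. The median Mdm2 split ratio rose with at least 2 Mdm2 UMIs to 0.81 in control and 0.98 in p300-ablated nuclei, and at 1500 UMIs per nucleus to 0.74 in control and 0.51 in CBP-ablated nuclei, where Sesn1 reversed to 0.053. For these the cause was not tested. The search for paired half-sites and the split combined over classes and bins of depth were also chosen after seeing the data. Dropping called doublets or nuclei under 1500 UMIs, or centring on all genes, left the 20 library ratios within their intervals, while thinning to 1500 UMIs moved 4 of the 20, Polk and Apaf1 (CBP) to 0.093 and −0.088 and Apaf1 and Ccng1 (p300) to −0.17 and −0.53. Another seed, resolution or free RNA subtraction left the 70 levels compared within theirs. No paired analysis was possible because each condition has 1 library, and for the same reason no replicate could be left out. At these depths a member's ratio in 1 class often rests on under 100 UMIs a side, and several class values could not be told from 0.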

Other observations

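In nuclei with Mdm2, the other p53 targets of the fixed list had median log2 ratios of 0.25, 0.15 and 0.36 over nuclei without it, in the order control, CBP-ablated, p300-ablated. Plk3, a kinase of the stress response, was at 1.37 (0.96 to 1.79) in CBP-ablated nuclei, and Ddit4 at 0.80 (0.30 to 1.30). The p53 regulators stood at 0.07, 0.00 and 0.03. Cell cycle genes had medians of −0.29, −0.99 and −0.15, with 2 of 8, 8 of 8 and 2 of 11 intervals below 0 (10.3%, 18.1% and 11% of all genes) and 0 above, and Top2a in CBP-ablated nuclei was at −0.76 (−1.05 to −0.48). These list ratios were not combined over classes. Mdm2 stood at 71.4, 58.9 and 62.0 CPM in proliferating-like nuclei, and whether the mix of classes bears on these ratios was not tested. In the Mdm2-richest cluster, 22 of 30, 16 of 25 and 23 of 31 other p53 targets had an interval above 0 against the remaining nuclei, where 24.3%, 19.7% and 20.1% of all genes did.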
